A study of Homo sapiens with 24 samples.

Results

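The genes described here are 47 factors that start and run DNA replication, followed in 4 human lines of T-ALL, the acute lymphoblastic leukaemia of T cells, given the compound NVS-ZP7-3. They were taken as a list of named genes, each read by its brightest probe set that maps to a single gene, from 19775 genes with such a probe set. By role they comprised 8 genes of origin licensing, 14 of the helicase and its activation, 10 of the polymerases, 6 of the sliding clamp and its loader, 5 of single-strand binding and Okazaki fragment processing, and 4 of fork protection and DNA untangling. All 47 passed the filter on low values, which kept 10661 genes, and so all could be tested. The list was drawn up with earlier results of these data known, so counts over it are given as descriptions beside the same share over all tested genes.

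Established cultures of TALL-1, RPMI-8402, P12-ICHIKAWA and SUPT11 received either NVS-ZP7-3 or its solvent DMSO for 16 h, at a final DMSO share of 0.5% in both arms. This made 8 groups of 3 arrays, 24 arrays in total, and RNA was read on an Affymetrix array with probes near the 3′ end of transcripts. Compounds of the NVS-ZP7 family are known as inhibitors of the zinc transporter ZIP7 (SLC39A7) of the endoplasmic reticulum, found in a search for Notch pathway inhibitors, but the labels name no target and no dose. Nor do they say whether the 3 arrays of a group came from separate cultures, so the p-values reflect only how these arrays scatter, and that scatter may be technical.

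Before a cell can copy its DNA, the origin recognition complex (ORC) sits on origins in G1, and CDC6 and CDT1 load the ring-shaped MCM2 to MCM7 helicase around the DNA there. The CDC7 kinase with DBF4 then lets CDC45 and the GINS complex join the ring, which opens the duplex for the polymerases, while the clamp PCNA keeps those polymerases on the template. Transcription of many of these genes rises as cells enter S phase, largely through E2F factors, and cycling leukaemia lines express them strongly. RNA from a whole culture was measured, so fewer cells in S phase and less RNA per cell cannot be told apart.

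Because E2F factors are textbook regulators of this machinery, the promoters of the listed genes were searched for E2F-type sites. RefSeq promoter windows (assembly GRCh38.p14, 250 bases before to 50 after a transcription start) held 41 of the 47 genes, and not MCM4, MCM5, GINS4, POLD3, RPA2 or RPA3. The motifs were TTTCCCGC, TTTGGCGC and TTTCGCGC, searched on both strands with overlapping matches allowed, since TTTGGCGC and the reverse of TTTCGCGC share 4 letters where they abut. At least 1 match stood in a window of 21 of the 41 genes (51.2%), against 2.74% of all 35116 windows, 3.3% of the 27305 genes in the table and 5.92% of its 8820 tested genes. A match is a string of letters and does not show that a factor binds there. Stretches of 100 bases follow for 8 genes, written 5′ to 3′ on the strand of the gene with matches in capitals. They show genes of licensing (CDT1), helicase (MCM3, MCM6, GINS2), polymerase (POLA2) and clamp (PCNA) that carry a match, then ORC3, which carries a match and was not called in any line, and RFC1, which has none and was called higher in TALL-1.
CDT1: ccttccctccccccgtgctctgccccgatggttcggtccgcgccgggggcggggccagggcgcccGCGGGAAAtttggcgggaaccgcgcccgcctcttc
MCM3: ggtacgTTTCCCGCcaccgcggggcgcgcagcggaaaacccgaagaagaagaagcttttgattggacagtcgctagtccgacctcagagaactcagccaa
MCM6: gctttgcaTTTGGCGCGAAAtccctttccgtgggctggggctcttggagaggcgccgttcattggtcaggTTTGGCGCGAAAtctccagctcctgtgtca
GINS2: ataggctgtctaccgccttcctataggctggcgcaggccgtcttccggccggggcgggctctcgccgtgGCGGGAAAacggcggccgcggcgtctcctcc
POLA2: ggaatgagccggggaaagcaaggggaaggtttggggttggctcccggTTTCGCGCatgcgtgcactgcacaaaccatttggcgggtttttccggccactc
PCNA: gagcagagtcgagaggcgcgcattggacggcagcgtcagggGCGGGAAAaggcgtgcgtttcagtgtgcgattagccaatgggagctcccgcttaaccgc
ORC3: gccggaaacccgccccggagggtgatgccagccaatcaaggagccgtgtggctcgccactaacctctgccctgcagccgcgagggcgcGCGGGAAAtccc
RFC1: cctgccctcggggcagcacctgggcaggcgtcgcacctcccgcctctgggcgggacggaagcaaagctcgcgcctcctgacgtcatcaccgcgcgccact

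In the RefSeq assembly these stretches lie at chr16:88803689-88803788 (plus strand) for CDT1, chr6:52284823-52284922 (minus) for MCM3, chr2:135876504-135876603 (minus) for MCM6 and chr16:85688955-85689054 (minus) for GINS2. Those of POLA2, PCNA, ORC3 and RFC1 lie at chr11:65261862-65261961 (plus), chr20:5126623-5126722 (minus), chr6:87590035-87590134 (plus) and chr4:39366363-39366462 (minus). The MCM6 stretch holds 4 matches in 2 overlapping pairs, and the others with a match hold 1 each. In CDC6 the only match lay after the transcription start, at base 8.

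Levels are those of the deposited table, in log2, where a value of 2.18 is the floor of undetected probe sets, and a change is NVS-ZP7-3 minus DMSO. A change of -1 on this scale corresponds to a loss of 50% of the signal. A gene was called lower or higher when its limma p-value, adjusted by Benjamini-Hochberg over all 10661 tested genes, was below 0.05. Arrays of a group correlated at 0.993 to 0.998 across genes. Most T-lineage markers were well above the floor in each line, with 7 or 8 of 8 at log2 4 or more on each array. PTCRA lay close to that cut in SUPT11 and RPMI-8402 (3.94 to 4.06) and in P12-ICHIKAWA (4.07 to 4.77), and higher in TALL-1 (6.04 to 7.54). CD7 read 4.48 to 5.45 in RPMI-8402. CD5 was near the floor in TALL-1, and CD2 in P12-ICHIKAWA. Of 8 markers of other blood and stromal cells, CD14, MS4A1 and EPCAM stayed near the floor on every array, while the globin gene HBB and the lysozyme gene LYZ were high on some. S100A8 read 9.61 on RPMI-8402 DMSO replicate 3, CD79A 7.92 to 8.30 on the P12-ICHIKAWA arrays and COL1A1 6.68 to 7.88 on the RPMI-8402 arrays. On 3 arrays (TALL-1 NVS-ZP7-3 replicate 2, SUPT11 NVS-ZP7-3 replicate 2 and RPMI-8402 DMSO replicate 3) 5 to 22 transcripts silent in the rest of their line were raised, and the main counts are also given without those arrays.

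Replication genes were lower almost throughout in TALL-1, in a majority of cases in RPMI-8402 and in a few cases in P12-ICHIKAWA, and none was called in SUPT11. In TALL-1 41 of the 47 were lower, where 19.6% of all tested genes were lower, and 2 were higher against 22.3%. In RPMI-8402 25 were lower against 21.5% of all tested genes, and 2 were higher against 15.1%. In P12-ICHIKAWA 9 were lower against 2.98%, and none was higher against 4.91%.

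In SUPT11 limma called 0 of the 47 in either direction, where 0.582% of all tested genes were lower and 1.18% higher. At an unadjusted p below 0.05, ORC2 and TIPIN were lower and none was higher in that line, against 3.63% and 5.07% of all genes. The 47 changes in SUPT11 ran from -0.25 to 0.11, and for 43 genes the 95% interval lay above -0.50, the exceptions being ORC1, GINS4, POLD1 and POLE. A loss of the size seen for many genes in TALL-1 thus lay outside the interval for most of the list.

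All 3 treated arrays lay below all 3 DMSO arrays for 42 of the 47 genes in TALL-1 (23.3% of all tested genes), 33 in RPMI-8402 (28.7%), 17 in P12-ICHIKAWA (9.50%) and 8 in SUPT11 (7.77%). Of the 41 genes lower in TALL-1, 24 were also lower in RPMI-8402, a pattern that 9.85% of all tested genes had, and 16 were not called there, against 9.30%. The remaining gene was CDT1.

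The median change over the 47 genes was -0.48 in TALL-1 (-28.3% in signal) and -0.21 in RPMI-8402 (-13.5%). It was -0.15 in P12-ICHIKAWA and -0.04 in SUPT11. Over all tested genes the median was 0.00 in TALL-1, P12-ICHIKAWA and SUPT11 and -0.02 in RPMI-8402. Losses of at least 0.50 were called for 21 listed genes in TALL-1 against 6.84% of all genes. In RPMI-8402 5 genes passed that size (MCM5, GINS4, POLE2, TIPIN and CLSPN) against 8.07%, a share close to that of all genes. No listed gene passed it in P12-ICHIKAWA or SUPT11, where 0.891% and 0.281% of all genes did.

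**Figure D1:**
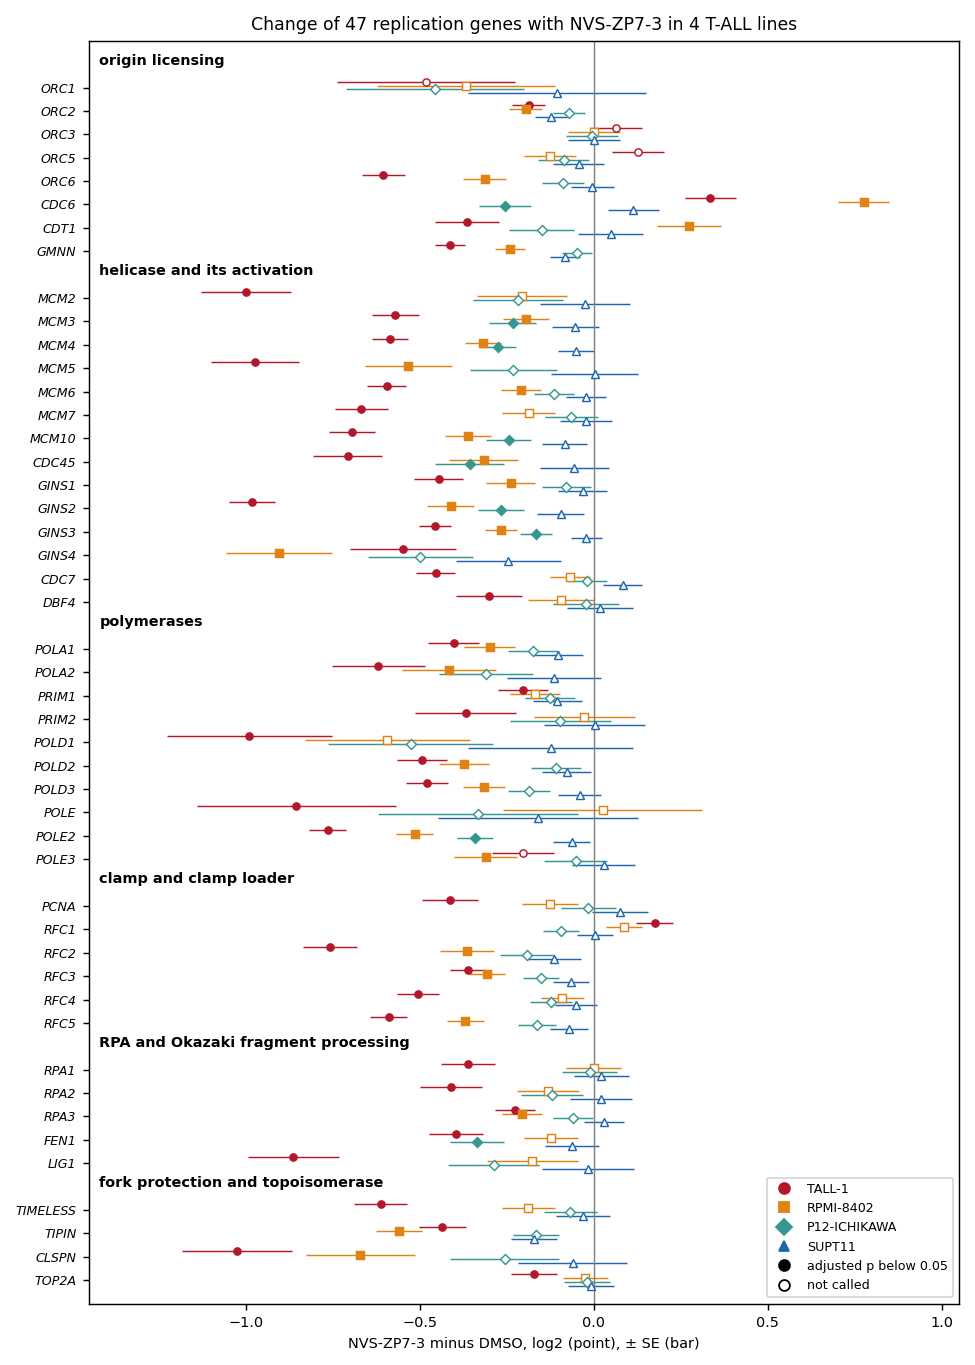
Change of each of the 47 genes with NVS-ZP7-3 (x axis, log2 difference from DMSO; point, estimate; bar, SE; 3 arrays per group) in 4 lines, ordered by role on the y axis; filled symbols passed an adjusted p below 0.05. TALL-1 values reach -1.02, SUPT11 values stay between -0.25 and 0.11, and CDC6 stands alone on the right at 0.78 in RPMI-8402.

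Measures of RNA quality and of other cells moved with treatment in some lines. For ACTB the array carries control probe sets at both transcript ends, whose difference (3′ minus 5′) reflects RNA integrity and labelling. That difference was 0.49 higher with the compound in TALL-1 and 0.30 in RPMI-8402. It was 0.05 and 0.04 higher in SUPT11 and P12-ICHIKAWA, so the lines with many calls were those where it moved, while the same difference for GAPDH moved by at most 0.04. With the ACTB difference as a covariate 35 genes were lower in TALL-1 and 26 in RPMI-8402, where the same fit called 14.9% and 17.8% of all tested genes lower. In P12-ICHIKAWA HBB lay between 7.96 and 11.45 on the compound arrays and between 2.18 and 2.29 on the DMSO arrays, and with HBB as a covariate 2 genes were lower in that line, against 0.957% of all tested genes in that fit. The summed level of the 8 markers of other cells also rose there, from 24.7 to 25.2 in DMSO to 33.7 to 38.9 with the compound. In TALL-1 that sum was 17.6 to 23.9 in DMSO and 17.5 to 31.3 with the compound, in RPMI-8402 23.3 to 53.0 and 32.3 to 40.9, and in SUPT11 17.8 to 20.0 and 17.7 to 30.9. The part of RNA quality or of other cells in these results was not tested beyond these fits.

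For the counts by role that follow, 19.6% of all tested genes were lower in TALL-1, 21.5% in RPMI-8402 and 2.98% in P12-ICHIKAWA. Higher were 22.3%, 15.1% and 4.91% of all tested genes in the same lines. Origin licensing was the most mixed group, with members moving in both directions. In TALL-1 4 of its 8 genes were lower (ORC2, ORC6, CDT1 and GMNN) and CDC6 was higher, and the median change was -0.28. In RPMI-8402 ORC2, ORC6 and GMNN were lower while CDC6 and CDT1 were higher. ORC1, ORC3 and ORC5 were the only listed genes not called in any line, a state that 39.8% of all tested genes shared. ORC1 was nonetheless measured at -0.48 ± 0.26 (SE) in TALL-1 and -0.46 ± 0.26 in P12-ICHIKAWA, with errors too wide for a call. Averaged over the lines ORC1 was called lower (-0.35 ± 0.13, limma adjusted p = 0.0297), a call lost without any 1 of 7 arrays.

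CDC6, the ATPase that recruits the helicase loader to ORC, was higher in RPMI-8402 and TALL-1 and lower in P12-ICHIKAWA. In RPMI-8402 it read 10.45, 10.43 and 10.41 in DMSO and 11.28, 11.19 and 11.14 with NVS-ZP7-3, a rise of 0.78 ± 0.07 (SE; limma adjusted p = 1.55e-07), or 71.2%. In TALL-1 it read 11.01, 10.89 and 11.05 in DMSO and 11.43, 11.24 and 11.27 with the compound, a rise of 0.33 ± 0.07 (adjusted p = 0.00115). The treated arrays lay above all DMSO arrays in both lines.

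P12-ICHIKAWA moved the other way for CDC6, from 10.75, 10.96 and 10.78 to 10.53, 10.54 and 10.66, a change of -0.26 ± 0.07 with no overlap (adjusted p = 0.0391). SUPT11 read 9.23, 9.28 and 9.35 in DMSO and 9.53, 9.42 and 9.26 with the compound, and these groups overlapped. The CDC6 response differed between lines with the smallest interaction p-value on the list (limma F test, adjusted p = 3.41e-06). Its other probe set moved by 0.25, 0.75 and -0.22 in TALL-1, RPMI-8402 and P12-ICHIKAWA, the same directions. The P12-ICHIKAWA fall lost its call when P12-ICHIKAWA DMSO replicate 2 (-0.19), NVS-ZP7-3 replicate 1 (-0.23) or NVS-ZP7-3 replicate 2 (-0.24) was left out, when SUPT11 DMSO replicate 2 was left out, and without the 3 arrays that stood apart. It was also lost on the other probe set, without the filter, with the replicate block, with HBB as a covariate and with the line fitted alone.

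CDT1, the partner of CDC6 in helicase loading, had opposite changes in TALL-1 (lower) and RPMI-8402 (higher) on its brightest probe set. TALL-1 read 10.52, 10.52 and 10.72 in DMSO and 10.16, 10.19 and 10.31 with the compound, a change of -0.36 ± 0.09 (limma adjusted p = 0.00376). RPMI-8402 read 10.40, 10.42 and 10.44 in DMSO and 10.62, 10.94 and 10.52 with the compound, a change of 0.27 ± 0.09 (adjusted p = 0.0267). Groups did not overlap in either line, but 1 of the treated RPMI-8402 arrays stood well above the other 2.

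The CDT1 fall in TALL-1 rests on the choice of probe set, and the RPMI-8402 call on the probe set and on single arrays. The other CDT1 probe set gave 0.13 in TALL-1 and 0.04 in RPMI-8402. Without RPMI-8402 NVS-ZP7-3 replicate 2 the rise was 0.15 and not called. Leaving out any of the 3 RPMI-8402 DMSO arrays also ended that call. P12-ICHIKAWA read 10.93, 10.90 and 10.79 in DMSO and 10.86, 10.71 and 10.60 with the compound, and SUPT11 10.505, 10.46 and 10.29 against 10.45, 10.52 and 10.44. Both lines overlapped. GMNN, the protein that holds CDT1 in check, fell by 0.41 ± 0.04 on the log2 scale in TALL-1 (adjusted p = 3.12e-07) and by 0.24 ± 0.04 in RPMI-8402 (adjusted p = 2.05e-04).

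ORC6, the smallest ORC subunit, showed the largest loss of the licensing genes. In TALL-1 it read 12.36, 12.28 and 12.43 in DMSO and 11.66, 11.79 and 11.81 with the compound, a change of -0.60 ± 0.06 (limma adjusted p = 2.48e-07). In RPMI-8402 it read 12.37, 12.30 and 12.38 against 12.08, 12.09 and 11.94, a change of -0.31 ± 0.06 (adjusted p = 5.50e-04). The groups were apart in both lines. P12-ICHIKAWA (12.26, 12.39 and 12.45 against 12.25, 12.22 and 12.36) and SUPT11 (12.24, 12.20 and 12.25 against 12.19, 12.18 and 12.30) overlapped. The probe sets of CDT1 and ORC6 carry the array maker's mark for probes that can also match other transcripts.

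**Figure D2:**
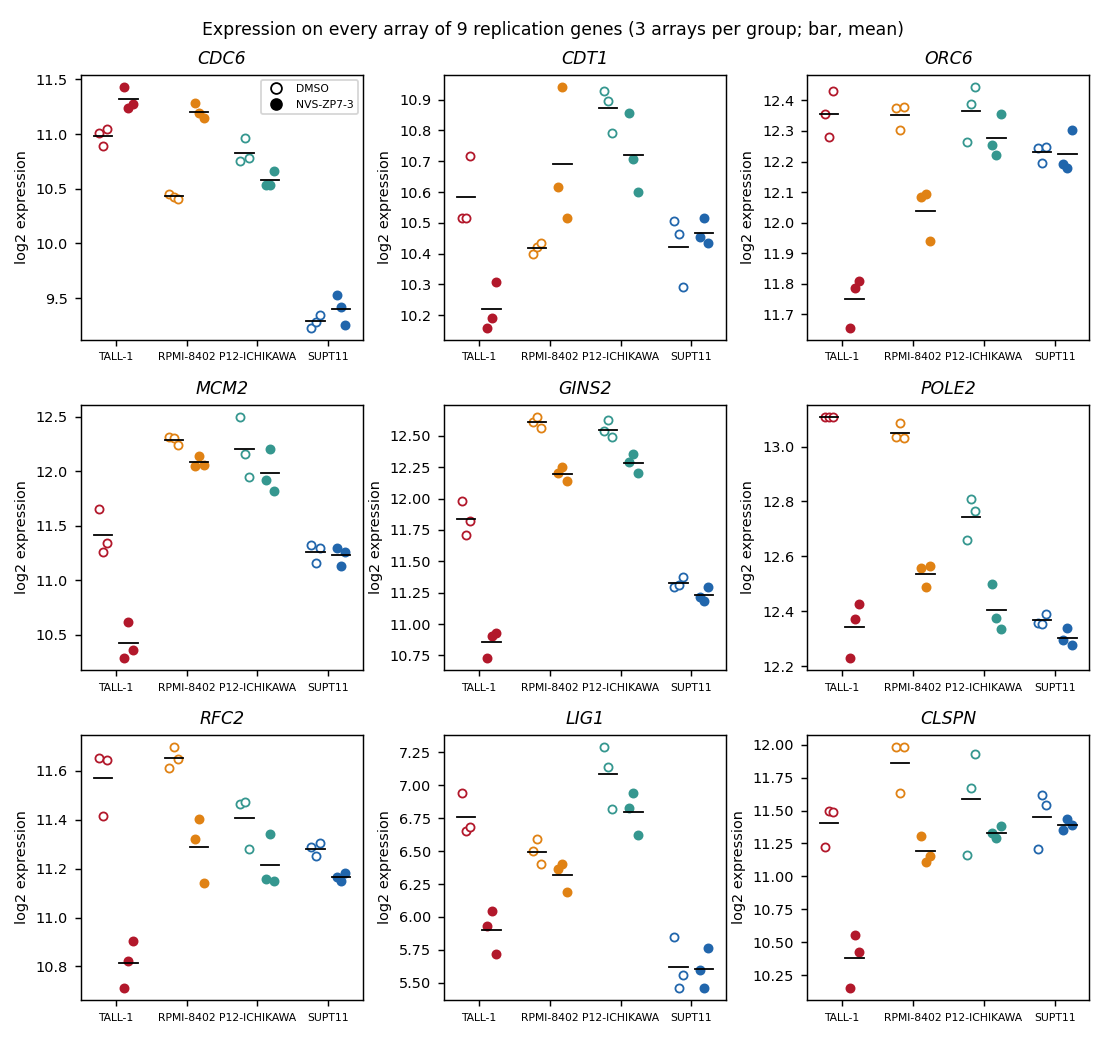
Log2 expression (y axis) of 9 genes on every array (open, DMSO; filled, NVS-ZP7-3; bar, mean of 3 arrays) in 4 lines; each panel has its own axis. CDC6 rises from 10.43 to 11.21 in RPMI-8402, while GINS2 falls from 11.84 to 10.86 and MCM2 from 11.42 to 10.42 in TALL-1, and the SUPT11 pairs stay close.

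The helicase and its activators were lower without exception in TALL-1. All 14 were called there, with changes from -0.999 to -0.30 and a median of -0.59 (-33.6% in signal). RPMI-8402 had 10 called lower and P12-ICHIKAWA 6, at medians of -0.25 and -0.22, and SUPT11 none at -0.03. The genes called in all of TALL-1, RPMI-8402 and P12-ICHIKAWA numbered 7 (MCM3, MCM4, MCM10, CDC45, GINS2, GINS3 and POLE2), where 1.43% of all tested genes were lower in all 3 lines. All but POLE2 belonged to the helicase group. The count was 4 without P12-ICHIKAWA DMSO replicate 1, 2 without DMSO replicate 2, 3 without NVS-ZP7-3 replicate 1 and 2 without NVS-ZP7-3 replicate 3 of that line, and 4 without the 3 arrays that stood apart. MCM4 and POLE2 were called in all 3 lines whichever array was left out.

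Each of the 6 ring subunits fell in TALL-1. MCM2 read 11.66, 11.26 and 11.34 in DMSO and 10.29, 10.61 and 10.36 with the compound, a change of -0.999 ± 0.13 (limma adjusted p = 4.61e-06). MCM5 changed by -0.97 ± 0.13, and MCM3, MCM4, MCM6 and MCM7 by -0.57, -0.59, -0.60 and -0.67.

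In RPMI-8402 MCM2 read 12.32, 12.30 and 12.24 in DMSO and 12.05, 12.14 and 12.05 with the compound, groups apart but not called (-0.21 ± 0.13, adjusted p = 0.233). In P12-ICHIKAWA it read 12.50, 12.16 and 11.94 against 11.92, 12.21 and 11.82, and in SUPT11 11.32, 11.15 and 11.30 against 11.30, 11.13 and 11.26. Both of those pairs overlapped, with wide scatter in P12-ICHIKAWA. MCM3, MCM4, MCM5 and MCM6 were called in RPMI-8402, at -0.19, -0.32, -0.53 and -0.21.

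GINS2, a subunit of the complex that joins the MCM ring to CDC45, had the clearest loss of the group in TALL-1. TALL-1 read 11.98, 11.71 and 11.82 in DMSO and 10.73, 10.90 and 10.93 with the compound, a change of -0.98 ± 0.07 (limma adjusted p = 1.26e-09). RPMI-8402 went from 12.61, 12.65 and 12.57 to 12.20, 12.25 and 12.14 (-0.41 ± 0.07, adjusted p = 8.36e-05). P12-ICHIKAWA went from 12.54, 12.62 and 12.49 to 12.29, 12.35 and 12.21 (-0.27 ± 0.07, adjusted p = 0.0170). The other passing probe set of GINS2 fell by the same sign in TALL-1 (-0.65) and RPMI-8402 (-1.28). It went the other way in P12-ICHIKAWA (0.20) and SUPT11 (0.44), so the P12-ICHIKAWA fall rests on the brightest probe set.

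SUPT11 read 11.29, 11.31 and 11.37 in DMSO and 11.21, 11.19 and 11.29 with the compound, all 3 treated arrays just below the DMSO arrays, without a call (-0.10 ± 0.07, adjusted p = 0.897). The size of the GINS2 loss differed between lines (interaction F test, adjusted p = 4.08e-06). GINS4 had its largest measured loss in RPMI-8402 and not in TALL-1. Its response was not shown to differ between lines (interaction F test, adjusted p = 0.106). In RPMI-8402 GINS4 went from 8.76, 8.82 and 8.62 to 7.64, 8.004 and 7.85 (-0.90 ± 0.15, adjusted p = 1.22e-04), against -0.55 ± 0.15 in TALL-1 (adjusted p = 0.00682) and -0.50 ± 0.15 in P12-ICHIKAWA, which was not called (adjusted p = 0.0513).

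Of the remaining activators, MCM10, which binds the assembled helicase at origin firing, changed by -0.69 in TALL-1, -0.36 in RPMI-8402 and -0.24 in P12-ICHIKAWA. CDC45 changed by -0.71, -0.32 and -0.36 in the same lines. The kinase CDC7 was called in TALL-1 alone, where it read 14.16, 14.24 and 14.26 in DMSO and 13.72, 13.79 and 13.79 with the compound (-0.45 ± 0.06, adjusted p = 3.13e-06). Its groups overlapped in RPMI-8402 (13.89, 13.89 and 13.93 against 13.84, 13.94 and 13.72), in P12-ICHIKAWA (13.77, 13.74 and 13.80 against 13.67, 13.72 and 13.86) and in SUPT11 (13.58, 13.49 and 13.45 against 13.54, 13.62 and 13.60). DBF4, its activating partner, was likewise called in TALL-1 and in no other line, at -0.30 ± 0.09 (adjusted p = 0.0149). The DBF4 call was lost without any 1 of 2 arrays. The TALL-1 response of CDC7 differed from the mean of the other lines (-0.45, adjusted p = 4.22e-05), while that of DBF4 was not shown to differ (-0.27, adjusted p = 0.0740).

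Among the polymerases, 9 of 10 genes were lower in TALL-1 at a median of -0.49, and POLE3, a histone-fold subunit of polymerase epsilon, was not called. RPMI-8402 had 6 lower, against 21.5% of all tested genes, at a median of -0.31. P12-ICHIKAWA had POLE2 alone, against 2.98% of all tested genes, and SUPT11 had none. POLE2, the second subunit of the leading-strand polymerase epsilon, read 13.11 on each of the 3 TALL-1 DMSO arrays and 12.23, 12.37 and 12.43 with the compound (-0.76 ± 0.05, limma adjusted p = 1.51e-09). It went from 13.04, 13.08 and 13.03 to 12.56, 12.49 and 12.56 in RPMI-8402 (-0.51 ± 0.05, adjusted p = 4.04e-07).

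In P12-ICHIKAWA POLE2 went from 12.66, 12.81 and 12.76 to 12.50, 12.38 and 12.34 (-0.34 ± 0.05, adjusted p = 3.29e-04), again with no overlap. SUPT11 read 12.36, 12.35 and 12.39 against 12.29, 12.34 and 12.28, a small step of -0.06 ± 0.05 that was not called. Together with MCM4 it was 1 of the 2 genes whose P12-ICHIKAWA call held whichever array was left out. POLE3 in RPMI-8402 fell from 12.44, 12.37 and 12.51 to 12.17, 12.24 and 11.97 (-0.31 ± 0.09, adjusted p = 0.0110), and its groups overlapped in TALL-1 (11.51, 11.21 and 11.61 against 11.18, 11.24 and 11.29), P12-ICHIKAWA (12.10, 12.22 and 12.21 against 12.05, 12.07 and 12.26) and SUPT11 (12.55, 12.40 and 12.42 against 12.46, 12.43 and 12.55).

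The primase-bearing polymerase alpha, which starts each strand, had POLA1 and POLA2 lower in TALL-1 (-0.40 and -0.62) and in RPMI-8402 (-0.30 and -0.42). Its primase subunits PRIM1 and PRIM2 were lower in TALL-1 (-0.20 and -0.37, adjusted p = 0.0280 and 0.0496). Their responses were not shown to differ between lines (limma interaction F test, adjusted p = 0.833 and 0.408). The PRIM1 call was lost without TALL-1 DMSO replicate 1 or 3 or NVS-ZP7-3 replicate 1, and the PRIM2 call without any 1 of 16 arrays. Polymerase delta, which copies the lagging strand, had POLD2 and POLD3 lower in TALL-1 (-0.49 and -0.48) and RPMI-8402 (-0.37 and -0.32). The catalytic subunits POLD1 and POLE changed by -0.99 ± 0.24 and -0.85 ± 0.29 in TALL-1, but on dim probe sets whose DMSO arrays read 4.40 to 5.56 and 5.56 to 6.60. Those 2 values carry the widest errors in the polymerase group.

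Of the clamp and its loader, 5 of 6 genes were lower in TALL-1 and RFC1 was higher. PCNA, the clamp, was lower in TALL-1 (-0.41 ± 0.08, adjusted p = 3.59e-04) and not called elsewhere. The loader subunit RFC2 went from 11.65, 11.41 and 11.65 to 10.71, 10.82 and 10.90 in TALL-1 (-0.76 ± 0.08, adjusted p = 2.81e-07) and from 11.61, 11.70 and 11.65 to 11.32, 11.40 and 11.14 in RPMI-8402 (-0.36 ± 0.08, adjusted p = 0.00115). It overlapped in P12-ICHIKAWA (11.47, 11.47 and 11.28 against 11.16, 11.34 and 11.15), while in SUPT11 all treated arrays were below the DMSO arrays (11.29, 11.25 and 11.30 against 11.16, 11.15 and 11.18) without a call.

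RFC3, RFC4 and RFC5 were lower in TALL-1 at -0.36, -0.50 and -0.59, and RFC3 and RFC5 also in RPMI-8402 at -0.31 and -0.37. RFC1, the large subunit of the loader, read 12.35, 12.31 and 12.35 in TALL-1 with DMSO and 12.52, 12.52 and 12.49 with the compound, a rise of 0.17 ± 0.05 (adjusted p = 0.0111). Treated arrays lay above all DMSO arrays, but the other passing probe set of RFC1 gave -0.05, and on the mean of both the rise was 0.04. The call was also lost when arrays were centred on their medians (0.12). In RPMI-8402 (12.60, 12.51 and 12.61 against 12.70, 12.58 and 12.70), P12-ICHIKAWA (12.32, 12.40 and 12.49 against 12.28, 12.33 and 12.32) and SUPT11 (12.30, 12.37 and 12.42 against 12.34, 12.32 and 12.45) the RFC1 groups overlapped.

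**Figure D3:**
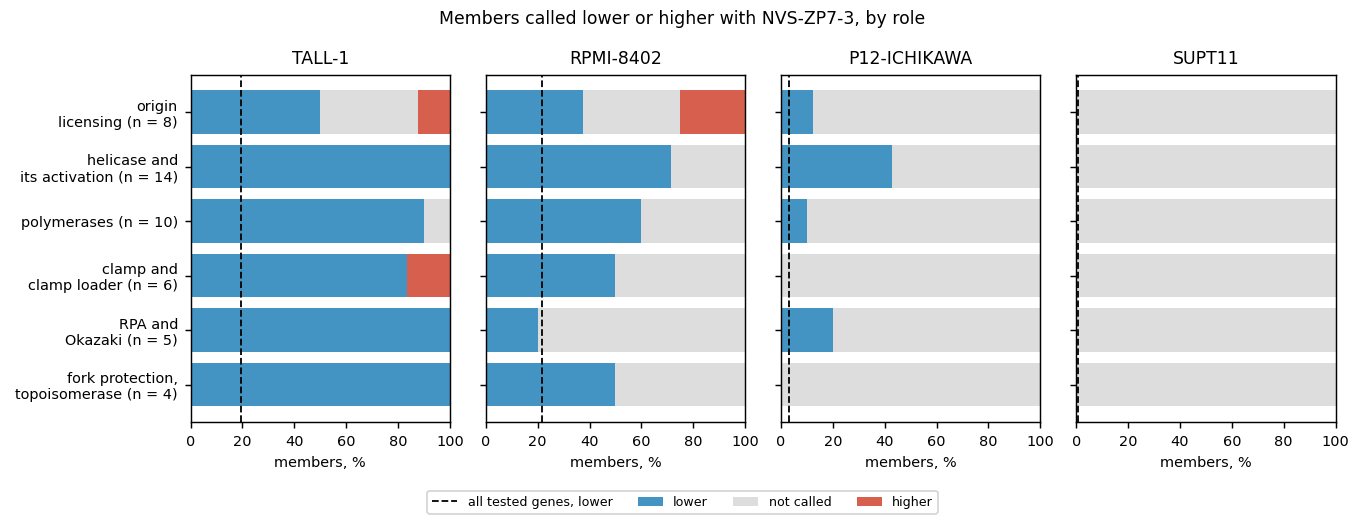
Share of each role's genes (x axis, percent) that were lower, higher or not called with NVS-ZP7-3, in 4 lines; the dashed line is the share of all tested genes that were lower (19.6% in TALL-1, 21.5% in RPMI-8402, 2.98% in P12-ICHIKAWA, 0.582% in SUPT11). In TALL-1 all 14 helicase genes are lower, and higher calls appear in licensing and in the clamp group only.

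Genes that bind and finish the nascent lagging strand were all lower in TALL-1, at a median of -0.40, and 1 of 5 was lower in RPMI-8402 and in P12-ICHIKAWA, beside 21.5% and 2.98% of all tested genes. LIG1, the ligase that seals Okazaki fragments, went from 6.94, 6.66 and 6.69 to 5.93, 6.05 and 5.72 in TALL-1 (-0.86 ± 0.13, adjusted p = 3.02e-05), the groups well apart. It was not called in RPMI-8402 (6.497, 6.59 and 6.40 against 6.36, 6.40 and 6.19), P12-ICHIKAWA (7.29, 7.14 and 6.82 against 6.83, 6.94 and 6.62) or SUPT11 (5.85, 5.46 and 5.56 against 5.60, 5.46 and 5.76). All 3 of those pairs overlapped. FEN1, the nuclease that trims the flaps, was lower in TALL-1 (-0.40) and P12-ICHIKAWA (-0.34 ± 0.08, adjusted p = 0.00942).

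The single-strand binding proteins RPA1, RPA2 and RPA3 changed by -0.36, -0.41 and -0.23 in TALL-1. RPA3 was the member of this group called in RPMI-8402, from 12.81, 12.90 and 12.89 to 12.64, 12.70 and 12.64 (-0.21 ± 0.06, adjusted p = 0.00869), and in TALL-1 it went from 12.08, 11.98 and 12.13 to 11.70, 11.86 and 11.95. In P12-ICHIKAWA RPA3 read 13.13, 13.18 and 13.13 against 13.08, 13.07 and 13.11, apart but not called, and in SUPT11 13.29, 13.37 and 13.25 against 13.40, 13.31 and 13.28, with overlap.

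Fork protection genes were lower in TALL-1 without exception, at a median of -0.52. CLSPN (claspin), which links stalled forks to the checkpoint kinase CHEK1, had the largest change of all 47 genes in that line. It went from 11.22, 11.50 and 11.49 to 10.15, 10.55 and 10.43 (-1.02 ± 0.16, limma adjusted p = 3.29e-05), or -50.9% in signal, and in RPMI-8402 from 11.98, 11.63 and 11.98 to 11.31, 11.11 and 11.15 (-0.67 ± 0.16, adjusted p = 0.00241). Groups overlapped in P12-ICHIKAWA (11.16, 11.67 and 11.93 against 11.33, 11.29 and 11.38) and SUPT11 (11.21, 11.62 and 11.54 against 11.35, 11.44 and 11.39), where the DMSO arrays scattered widely.

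TIPIN, which holds TIMELESS at the fork, changed by -0.43 ± 0.07 in TALL-1 and -0.56 ± 0.07 in RPMI-8402 (adjusted p = 3.20e-05 and 2.54e-06). It was the single listed gene whose RPMI-8402 response was lower than the mean response of the other lines (adjusted p = 0.0101), against 11.4% of all genes. TIMELESS was lower in TALL-1 (-0.61) and not called in the other lines, and its TALL-1 response differed from their mean (adjusted p = 2.31e-04). TOP2A, which untangles daughter strands and peaks in G2, changed least of the group, from 14.76, 14.70 and 14.71 to 14.57, 14.57 and 14.51 in TALL-1 (-0.17 ± 0.07, adjusted p = 0.0419). It read 14.35, 14.34 and 14.22 against 14.29, 14.37 and 14.18 in RPMI-8402, 14.53, 14.38 and 14.33 against 14.43, 14.51 and 14.24 in P12-ICHIKAWA and 14.48, 14.44 and 14.43 against 14.46, 14.46 and 14.41 in SUPT11, all with overlap. The TALL-1 call of TOP2A was lost without any 1 of 7 arrays.

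The size of the response differed between lines for most of the list. The interaction F test called 32 of the 47 genes, against 35.8% of all tested genes, and 28 without the 3 arrays that stood apart. The TALL-1 response was lower than the mean of the other 3 lines for 28 genes against 11.8% of all genes, and higher for RFC1 alone against 16.9%. The SUPT11 response was higher, that is closer to 0 or above, for 20 genes against 7.17%, and lower for none against 8.08%.

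P12-ICHIKAWA differed from the others for CDC6, which was lower there (4.73% of all genes lower), and for GMNN, which was higher (3.65%). RPMI-8402 was higher than the others for CDC6 and CDT1 (7.08%) besides the lower TIPIN. Of the 4 lines TALL-1 had the most negative change for 39 of the 47 genes, against 26.7% of all genes. Averaged over the lines 37 genes were lower against 24.5% of all genes, and CDC6 alone was higher (0.24 ± 0.04, adjusted p = 2.83e-05) against 22.4%.

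Whichever single array was left out, 38 of the 43 TALL-1 calls and 21 of the 27 RPMI-8402 calls held. The 9 lower genes of P12-ICHIKAWA were less stable. Leaving out arrays of that line, the count was 5 (DMSO replicate 1), 3 (DMSO replicate 2), 4 (NVS-ZP7-3 replicate 1) and 3 (NVS-ZP7-3 replicate 3). Those fits called 2.26%, 2.08%, 2.04% and 1.65% of all tested genes lower there. Without the 3 arrays that stood apart 39, 24 and 5 genes were lower in TALL-1, RPMI-8402 and P12-ICHIKAWA. That fit called 17.1%, 19.3% and 2.32% of all tested genes lower in these lines. Of the 47 genes, 20 had a further probe set that passed the filter, and for called genes these moved in the same direction in 22 of 24 cases in TALL-1, 18 of 19 in RPMI-8402 and 8 of 9 in P12-ICHIKAWA.

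**Figure D4:**
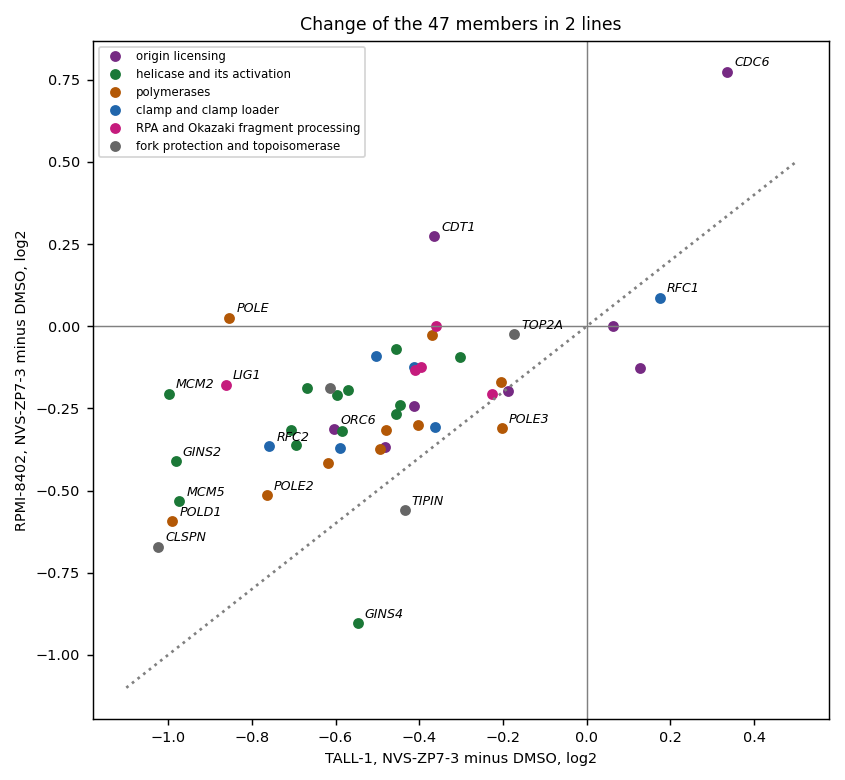
Change of the 47 genes in TALL-1 (x axis) against RPMI-8402 (y axis), log2 NVS-ZP7-3 minus DMSO, coloured by role; the dotted line marks equal change. Most genes lie at the lower left and above the dotted line, CDC6 lies at the upper right (0.33 and 0.78), CDT1 has opposite signs, and GINS4 lies farthest down (-0.90 in RPMI-8402).

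Treatment responses in different lines share no array, so their likeness over the list can be described. Across the 47 genes the changes in TALL-1 and RPMI-8402 correlated at 0.62 (Pearson) and 0.59 (Spearman), against a Pearson value of 0.40 over all tested genes. SUPT11 and RPMI-8402 correlated at 0.66 and 0.59, although no SUPT11 change was called, against a Pearson value of 0.23 over all tested genes. TALL-1 and SUPT11 correlated at 0.37 and 0.38, against 0.16. The Pearson values of P12-ICHIKAWA with TALL-1, SUPT11 and RPMI-8402 were 0.49, 0.56 and 0.42, against 0.36, 0.26 and 0.35. Genes of the list are not independent of each other, so no p-value is given.

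Genes with and without an E2F-type match were set side by side. The search took exact strings, so a gene without a match may hold a site of other letters or outside its window. The comparison therefore cannot show what E2F sites contribute. Of all tested genes 19.6%, 21.5% and 2.98% were lower in TALL-1, RPMI-8402 and P12-ICHIKAWA. In TALL-1 the median was -0.46 for the 21 genes with a match and -0.44 for the 20 without, and 19 and 16 of them were called lower. In RPMI-8402 the medians were -0.21 and -0.19, with 12 and 8 genes lower, and in P12-ICHIKAWA -0.17 and -0.10, with 5 and 3 lower. In SUPT11 they were -0.03 and -0.05, with none called. ORC3, whose match is printed above, changed by 0.06 ± 0.07 in TALL-1 and by at most 0.01 in either direction elsewhere.

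On the DMSO arrays SUPT11 was the lowest line for most of the list. The F test among the DMSO groups called 45 of the 47 genes, all but ORC6 and POLA2, a share close to the 96.3% of all tested genes. SUPT11 had the lowest DMSO mean for 28 genes against 30.0% of all genes, and P12-ICHIKAWA the highest for 17 against 20.9%. Relative to the mean of the 4 lines, the median level of the list was -0.23 in SUPT11, 0.03 in TALL-1, 0.06 in RPMI-8402 and 0.18 in P12-ICHIKAWA, and over all tested genes it lay between -0.04 and 0.03.

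CDC6 was among the genes that set SUPT11 apart, at 9.29 ± 0.06 (SD, n = 3) against 10.43 ± 0.02 in RPMI-8402, 10.83 ± 0.12 in P12-ICHIKAWA and 10.98 ± 0.08 in TALL-1. MCM5 read 7.72 to 7.88 in SUPT11 and at least 9.39 on every DMSO array of the other lines, and ORC1 read 6.84 to 7.07 against at least 8.28. Neither range overlapped that of another line. RPA3 ran the other way, from 12.06 ± 0.08 in TALL-1 to 13.30 ± 0.06 in SUPT11, so the lower level in SUPT11 did not extend to every gene of the list.

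**Figure D5:**
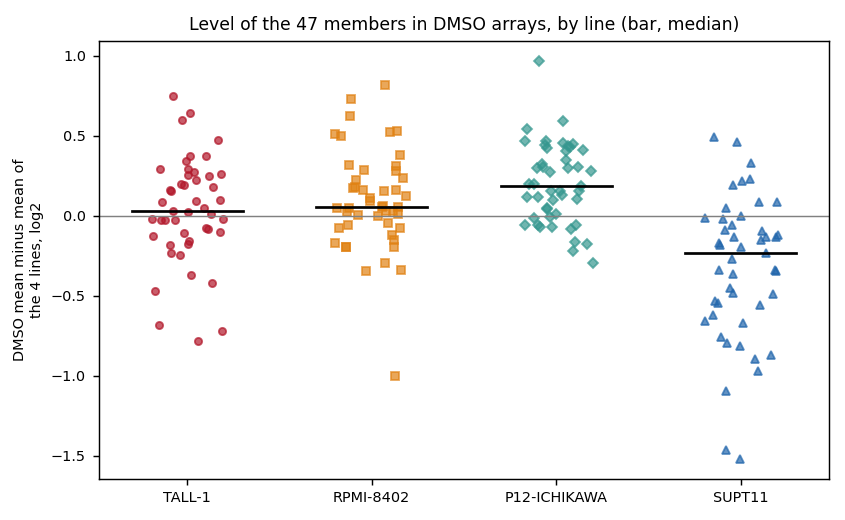
Level of each of the 47 genes on the DMSO arrays of a line, as the group mean of 3 arrays minus the mean of the 4 lines (y axis, log2; 1 point per gene, spread sideways for sight; bar, median). The median is -0.23 in SUPT11 and 0.18 in P12-ICHIKAWA, and the lowest point in SUPT11, ORC1, lies at -1.52.

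Related genes outside the list moved with it in TALL-1. Shares of all tested genes called lower, for the counts that follow, were 19.6% in TALL-1, 21.5% in RPMI-8402 and 2.98% in P12-ICHIKAWA. Of 20 other replication factors 13 were lower and 2 higher in TALL-1, 5 and 0 in RPMI-8402, 3 and 0 in P12-ICHIKAWA and none in SUPT11, and the RPMI-8402 share was close to that of all genes. RECQL4, a helicase of the initiation step, changed by -1.001 ± 0.17 (limma adjusted p = 1.02e-04) and ATAD5, which unloads PCNA, by -0.97 ± 0.14 (adjusted p = 1.38e-05) in TALL-1. POLD4, the small subunit of polymerase delta, rose there by 1.16 ± 0.19 (adjusted p = 6.65e-05) while POLD1, POLD2 and POLD3 were lower. The POLD4 probe set was dim, at 5.58 to 5.81 on the TALL-1 DMSO arrays and 6.48 to 7.06 with the compound. Every P12-ICHIKAWA compound array read the same POLD4 value, 5.79.

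G1/S control genes were lower in 12 of 14 cases in TALL-1, with 1 higher, and in 6 with 1 higher in both RPMI-8402 and P12-ICHIKAWA. CCNE1, the cyclin that activates CDK2 at S phase entry, changed by -1.03 ± 0.09 in TALL-1, -1.37 ± 0.09 in RPMI-8402 and -0.52 ± 0.09 in P12-ICHIKAWA (adjusted p = 4.11e-08, 1.02e-09 and 0.00111). E2F1 changed by -0.87 in TALL-1 (adjusted p = 1.77e-07) and -0.41 in P12-ICHIKAWA (adjusted p = 0.00527), and in RPMI-8402 by -0.22, which missed the threshold (adjusted p = 0.0571). CCNE2 was lower in TALL-1 (-0.77), E2F8 was lower in TALL-1, RPMI-8402 and P12-ICHIKAWA (-0.68, -0.67 and -0.61), and CDKN1B, which encodes the CDK inhibitor p27, was the gene that rose in all 3 (0.49, 0.57 and 0.44).

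Replication-coupled chromatin genes were lower in 7 of 8 cases in TALL-1, 5 in RPMI-8402 and 3 in P12-ICHIKAWA. The histone chaperones CHAF1A, CHAF1B and ASF1B changed by -0.82, -0.78 and -0.64 in TALL-1 and were called in all 3 lines. Deoxynucleotide supply genes were lower in 6 of 7 cases in TALL-1 and 5 in RPMI-8402, with none called in P12-ICHIKAWA, and RRM1, the large subunit of ribonucleotide reductase, changed by -0.52 and -0.25. TK1 and CTPS1 changed by -0.91 and -0.85 in TALL-1 and by -0.43 and -0.52 in RPMI-8402.

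Of 7 checkpoint genes 3 were lower in TALL-1, 3 lower and 1 higher in RPMI-8402 and 1 lower in P12-ICHIKAWA. CHEK1 was lower in all 3 (-0.58, -0.24 and -0.25), RAD1 in TALL-1 and RPMI-8402 (-0.35 and -0.26), and RAD9A was the gene that rose in RPMI-8402 (0.59 ± 0.14, adjusted p = 0.00246). Mitotic genes were lower in 12 of 16 cases in TALL-1 at a median of -0.25, in 5 in RPMI-8402 and in 1 in P12-ICHIKAWA, beside shares of all genes of 19.6%, 21.5% and 2.98%. MKI67, the proliferation marker Ki-67, changed by -0.996 ± 0.13, -0.37 ± 0.13 and -0.67 ± 0.13 in those lines, and CENPF and BUB1 by -0.61 and -0.56 in TALL-1. None of these lists had a called gene in SUPT11.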

How the data were processed

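Gene expression was read on 24 arrays in 8 groups of 3. The authors deposited a table of log2 values for 54675 probe sets with a floor of 2.18. Per the submitters' processing notes GCRMA and limma were used, with no version or settings. GCRMA models background and normalizes between arrays, so a change in total RNA per cell is not seen. Arrays give no counts, so precision is limited by their number and by how far a signal stands above the floor.

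Gene names came from an old annotation of the array, and symbols were updated through a RefSeq table (GRCh38.p14). A single gene was named for 41097 probe sets, several for 1801 and none for 11777. Each gene was read from its brightest probe set by mean, and was tested if 3 or more arrays reached log2 4. Using R 4.3.3 and limma 3.58.1 (lmFit, then contrasts.fit and eBayes), 1 linear model with a mean for each group was fitted over the 24 arrays, leaving 16 residual degrees of freedom (18.0 in total). Tested were the treatment effect per line and on average, each line against the mean of the others, the interaction (F test) and the DMSO levels (F test). Benjamini-Hochberg adjustment covered all 10661 genes. The steps were tested on simulated data.

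The listed genes, the related lists and the alternatives were chosen with earlier results of these data known. Values of every array are given for the largest fall and rise in each role (at log2 6 or more), for genes called in opposite directions and for the 3 smallest interaction p-values. From the related lists up to 3 genes with the largest mean change are named, with E2F1, CCNE1, CCNE2 and MKI67. CDKN1A was too dim for the filter, and no probe set mapped to ATRIP alone. GINS4, MCM5, ORC1, POLD1, POLE and TIPIN were given further values after those were seen. Same-numbered arrays of a line deviated with correlations of -0.14 to 0.42, with 3 of 12 above 0.1, so the numbers were not taken as pairs. Alternatives were other probe sets and filters, quantile normalization, median centring, a replicate block, an intensity trend, lines fitted alone, other thresholds, covariates for the ACTB difference and HBB, and leaving out each array. Leaving out 3 arrays with foreign transcripts was added after seeing the data. Each had at least 5 genes below 2.6 on the other arrays of its line, with a mean above 8 in the other lines, and raised by more than 1 over the median of its line.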

Additional observations from a re-analysis of the deposited data

Results flagged for a closer look

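The change with NVS-ZP7-3 differed between the 4 lines for 32 of the 47 replication genes, by the limma F test of the interaction of line and treatment with Benjamini-Hochberg adjustment over all tested genes, against 35.8% of those genes. In origin licensing the adjusted p-values were 3.41e-06 for CDC6, 1.12e-04 for ORC6, 3.57e-04 for GMNN and 0.00488 for CDT1. Among the helicase genes the adjusted p-values were 4.08e-06 for GINS2, 1.01e-04 for MCM6, 1.64e-04 for MCM4, 1.98e-04 for CDC7, 2.46e-04 for GINS3, 3.16e-04 for MCM10, 3.45e-04 for MCM7, 0.00155 for MCM2, 0.00163 for MCM5, 0.00204 for MCM3, 0.00919 for CDC45 and 0.0115 for GINS1. Among the polymerases the adjusted p-values were 5.93e-06 for POLE2, 0.00325 for POLD3 and 0.00618 for POLD2. In the clamp and its loader the adjusted p-values were 1.23e-04 for RFC5, 6.50e-04 for RFC2, 0.00115 for RFC4, 0.0107 for PCNA, 0.0114 for RFC3 and 0.0360 for RFC1. In single-strand binding and Okazaki processing the adjusted p-values were 0.00700 for LIG1, 0.0265 for RPA1, 0.0473 for RPA3 and 0.0477 for FEN1. The interaction call was lost without any 1 of 20 arrays for FEN1, 17 for RPA3, 10 for RFC1 and 3 for RPA1. In fork protection the adjusted p-values were 0.00113 for TIMELESS, 0.00469 for TIPIN and 0.00843 for CLSPN. TALL-1 had the most negative change for 39 of the 47 genes, and CDC6 and CDT1 were the genes called in both directions. For ACTB the difference between its 3′ and 5′ probe sets moved with treatment in TALL-1 and RPMI-8402 (0.49 and 0.30), and HBB in P12-ICHIKAWA. Their part in the differences between lines was not tested beyond the covariate fits, which cannot tell them apart from treatment in those lines.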

How the results depend on the processing

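Over the alternatives other than leaving out single arrays, SUPT11 stayed at 0 lower calls. Except where a minimum change was asked for, lower calls numbered 35 to 42 in TALL-1 and 20 to 27 in RPMI-8402. In those fits 9.82% to 23.9% of all tested genes were lower in TALL-1 and 10.9% to 24.5% in RPMI-8402. Member by member, 10100 comparisons of an alternative with the value reported kept their side of the threshold, 364 lost a call, 90 gained one and 3 called values changed sign. Among the first, 130 values called in neither fit changed sign. The 3 sign changes came with the probe set of widest interquartile range, for CDT1 (0.13) and RFC1 (-0.054) in TALL-1 and ORC2 in RPMI-8402 (0.019). No setting moved the median of all tested genes by more than 0.1.

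With a change of at least 0.5 required, lower calls were 21 in TALL-1, 5 in RPMI-8402, 0 in P12-ICHIKAWA and 3 on average. Higher calls were 0, 1, 0 and 0. Of all tested genes 6.84%, 8.07% and 0.891% were lower by that rule in TALL-1, RPMI-8402 and P12-ICHIKAWA. At an adjusted p below 0.01, P12-ICHIKAWA had 3 lower calls, against 1.29% of all tested genes. TALL-1 and RPMI-8402 had 1 higher call each. With the replicate number as a block within line, P12-ICHIKAWA had 4 lower calls, TALL-1 41, RPMI-8402 23 and SUPT11 0. That fit called 1.87%, 18.2%, 19.5% and 0.375% of all tested genes lower, in the same order. The numbers do not pair the arrays, and the F test among DMSO groups could not be fitted with that block. P12-ICHIKAWA had 2 lower calls with HBB as a covariate, 0 when the line was fitted alone and 5 without the 3 arrays that stand apart. Those fits called 0.957%, 0.572% and 2.32% of all tested genes lower there, so the 0 is near the share of all genes. Genes lower in TALL-1, RPMI-8402 and P12-ICHIKAWA at once, 7 as reported, numbered 2 with HBB, 3 with the replicate block, 11 after quantile normalization and 0 with lines fitted alone. Higher calls were 1 in TALL-1 with the mean of probe sets, the widest probe set and median centring, and 1 in RPMI-8402 with both probe set rules, no filter, the ACTB covariate, the line fitted alone and without the 3 arrays.

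Among medians in TALL-1, the mean of probe sets gave -0.15 for licensing, -0.54 for the clamp group and -0.36 for fork protection, and the widest probe set -0.064 for licensing and -0.73 for the helicase. Median centring gave -0.51 for the clamp group. The ACTB covariate gave -0.52 for the clamp group, -0.54 for Okazaki processing and -0.43 for fork protection. In RPMI-8402 fork protection was -0.24 with the mean of probe sets, the helicase -0.30 and Okazaki processing -0.21 with the widest probe set, and all genes -0.28 with the ACTB covariate. In P12-ICHIKAWA fork protection was -0.058 with the mean of probe sets, the clamp group -0.17 with the widest probe set and the helicase -0.12 with HBB. In SUPT11 the clamp group was -0.032 and fork protection -0.10 with the widest probe set, and the helicase -0.045 after quantile normalization. With HBB the SUPT11 medians were -0.018 for all genes, -0.0022 for the helicase, -0.038 for the polymerases and -0.039 for the clamp group, and without the 3 arrays -0.022 for all genes and -0.080 for the clamp group. The cause of these moves was not tested.

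Leaving out each array in turn gave 37 to 41 lower and 2 to 3 higher calls in TALL-1 and 3 to 10 and 0 in P12-ICHIKAWA. It gave 21 to 28 and 1 to 2 in RPMI-8402 and 36 to 39 and 1 on average. Interaction calls numbered 28 to 33, and calls among DMSO groups 44 to 46. Of all tested genes 16.1% to 20.1% were lower in TALL-1, 1.65% to 3.20% in P12-ICHIKAWA and 17.5% to 22.2% in RPMI-8402. Medians over all listed genes ranged from -0.51 to -0.44 in TALL-1 and -0.24 to -0.20 in RPMI-8402. They ranged from -0.17 to -0.12 in P12-ICHIKAWA and -0.049 to -0.022 in SUPT11. By role (licensing, helicase, polymerases, clamp, Okazaki processing, fork protection) the ranges in TALL-1 were -0.29 to -0.23, -0.63 to -0.56, -0.54 to -0.45, -0.50 to -0.44, -0.44 to -0.32 and -0.57 to -0.50. In RPMI-8402 they were -0.17 to -0.11, -0.28 to -0.24, -0.37 to -0.26, -0.27 to -0.18, -0.18 to -0.11 and -0.39 to -0.36. In P12-ICHIKAWA they were -0.11 to -0.07, -0.25 to -0.14, -0.23 to -0.15, -0.17 to -0.10, -0.18 to -0.07 and -0.14 to -0.08. In SUPT11 they were -0.050 to 0.0046, -0.038 to -0.021, -0.099 to -0.052, -0.080 to -0.026, -0.040 to 0.054 and -0.12 to -0.017, so the small SUPT11 medians for licensing and Okazaki processing have no settled sign.

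Limits follow from the design. With 3 arrays a group, a limma SE of 0.04 to 0.29 leaves small changes uncalled, more so for the dim probe sets of POLD1, POLE and LIG1. ORC1 was brighter than those but also had a wide SE, 0.26 in each line. Normalization fixes the overall level of each array, so changes are relative to other genes. Bulk RNA does not separate cell cycle stage from expression per cell.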
